A study of Mus musculus with 6 samples.

Results

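The proneural and neural basic helix-loop-helix (bHLH) genes were followed through anti-H3K27me3 CUT&Tag peak lists of mouse ovarian granulosa cells (GCs). They are *Neurog1*, *Neurog2*, *Neurog3*, *Neurod1*, *Neurod2*, *Olig1*, *Olig2*, *Olig3* and *Atoh1*, which are 9 of the 21938 protein-coding genes examined. The genes were chosen by name, with earlier results of these data known. Every deposited peak from 5 kb upstream of the transcription start site (TSS) to the end of the gene was assigned to them. Their windows held 128 of the 37177 summits listed in all libraries, and each of the 9 genes had a peak in at least 1 library, against 19.5% of protein-coding genes.

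These factors bind DNA as dimers with the widely expressed E proteins at the E-box sequence CANNTG, and they commit progenitor cells to neuronal or glial fates. Notch signaling holds them back through the Hes and Hey repressors, and Id proteins do so by occupying the E proteins. In tissues outside the nervous system, such genes are a textbook target of the Polycomb repressive complexes, whose EZH2 subunit trimethylates lysine 27 of histone H3 (H3K27me3), a mark of silent chromatin. GCs are the somatic cells that surround the oocyte and do not take a neural fate.

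The control group received phosphate-buffered saline (PBS), and the CTX-treated group received cyclophosphamide (CTX), an alkylating chemotherapeutic agent that the liver activates. Both groups were 3-week-old female ICR mice primed with pregnant mare's serum gonadotropin, and GCs were taken 6 h after a single intraperitoneal injection. There were 3 libraries in each group, each from the pooled GCs of 3 mice. The question put to these data was whether CTX treatment changed H3K27me3 over the gene regions.

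The depth recovered from the lists was 1375 to 1957 reads per Mb across PBS libraries and 1118 to 1630 reads per Mb across CTX libraries. Peaks covered 1.74 to 2.84 Mb across PBS libraries and 0.929 to 1.94 Mb across CTX libraries. CTX replicate 3 was the shallowest library and the one with the fewest summits, 3316 against 5061 to 9083 in the others. Peaks were rare at the 12 granulosa cell marker genes fixed for this check, of which 10 had no peak and *Fshr* and *Esr2* each had a peak in 1 PBS library. Of the 5 theca and interstitial cell markers, *Insl3*, which encodes a hormone of theca cells, had a peak in all 6 libraries. The other 4 had none. Of the 6 oocyte, 4 leukocyte and 3 endothelial markers, *Ddx4* and *Ptprc* had a peak in 1 CTX library each, and the rest had none. In such pooled cells, a loss of the mark in every cell and a change in the makeup of the cells cannot be told apart.

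Some summits recurred at nearly the same base in several libraries, within a span of 50 bp. The sequence under 6 of them is shown. The first 4 are places where the mark was called in 5 or 6 libraries, *Olig2* is a place called in the PBS libraries only, and *Neurod1* is an upstream place with few CpGs for contrast. Each stretch is 120 bases of the mm10 (GRCm38) genome centred on the recurrent summit, read on the strand of the gene from 5′ to 3′, with each CpG in capitals.
*Olig3*, chr10:19357121-19357240, plus strand, coding exon, summit in 6 of 6 libraries: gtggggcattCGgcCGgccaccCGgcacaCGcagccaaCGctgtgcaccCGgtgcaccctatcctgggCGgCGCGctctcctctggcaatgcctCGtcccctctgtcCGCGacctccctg
*Olig1*, chr16:91270536-91270655, plus strand, coding exon, summit in 6 of 6 libraries: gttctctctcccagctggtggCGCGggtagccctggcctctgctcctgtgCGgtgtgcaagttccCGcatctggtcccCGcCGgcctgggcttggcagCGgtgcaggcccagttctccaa
*Neurog3*, chr10:62133858-62133977, plus strand, coding exon, summit in 5 of 6 libraries: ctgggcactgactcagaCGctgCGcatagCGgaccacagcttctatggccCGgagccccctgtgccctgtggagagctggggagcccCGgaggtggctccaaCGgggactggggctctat
*Neurog2*, chr3:127628444-127628563, plus strand, upstream of the TSS, summit in 5 of 6 libraries: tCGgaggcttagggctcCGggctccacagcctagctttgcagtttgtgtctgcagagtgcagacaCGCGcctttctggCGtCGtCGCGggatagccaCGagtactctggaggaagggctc
*Olig2*, chr16:91227024-91227143, plus strand, coding exon, summit in 3 PBS libraries and 0 CTX libraries: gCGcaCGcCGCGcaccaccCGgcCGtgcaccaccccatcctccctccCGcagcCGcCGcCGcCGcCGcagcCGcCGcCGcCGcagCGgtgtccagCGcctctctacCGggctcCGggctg
*Neurod1*, chr2:79459555-79459674, minus strand, upstream of the TSS, summit in 2 PBS libraries and 1 CTX library: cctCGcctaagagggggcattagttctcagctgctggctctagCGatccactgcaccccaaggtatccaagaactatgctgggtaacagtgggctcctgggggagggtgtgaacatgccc
The *Olig2* stretch held 20 CpGs and the *Olig3* stretch held 12. The stretches of *Neurog2*, *Olig1* and *Neurog3* held 9, 7 and 6. The median over 36894 summits of all libraries was 3 CpGs in a window of this length, with quartiles of 1 and 6. The *Neurod1* stretch, chosen for its few CpGs, held 2. A stretch centred on another recurrent *Neurod1* summit, 23 bp downstream of the TSS and not printed, held 14. The E-box letters CANNTG, which read the same on both strands, occurred at 2 places in the *Olig1* stretch, at 1 place in the *Neurod1* stretch and at 0 places in the other 4. Over all summits, 40.8% of such windows held the letters.

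The summits shared by 5 or 6 libraries lay mostly within the genes. All 6 libraries had an *Olig3* summit between 634 and 664 bp downstream of the TSS, and all 6 had an *Olig1* summit between 810 and 847 bp downstream. The *Neurog3* summit lay 797 to 838 bp downstream in the 5 libraries that had a *Neurog3* peak. A *Neurog1* summit in the 5′ untranslated region recurred in 5 libraries, 151 to 186 bp downstream of the TSS. Among them the *Neurog2* summit lay far from its gene, at -4653 to -4608 bp from the TSS in 5 libraries. Of all summits assigned to the 9 genes, coding exons held 30 across PBS libraries and 22 across CTX libraries, whereas upstream sequence held 35 and 10.

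**Figure D1:**
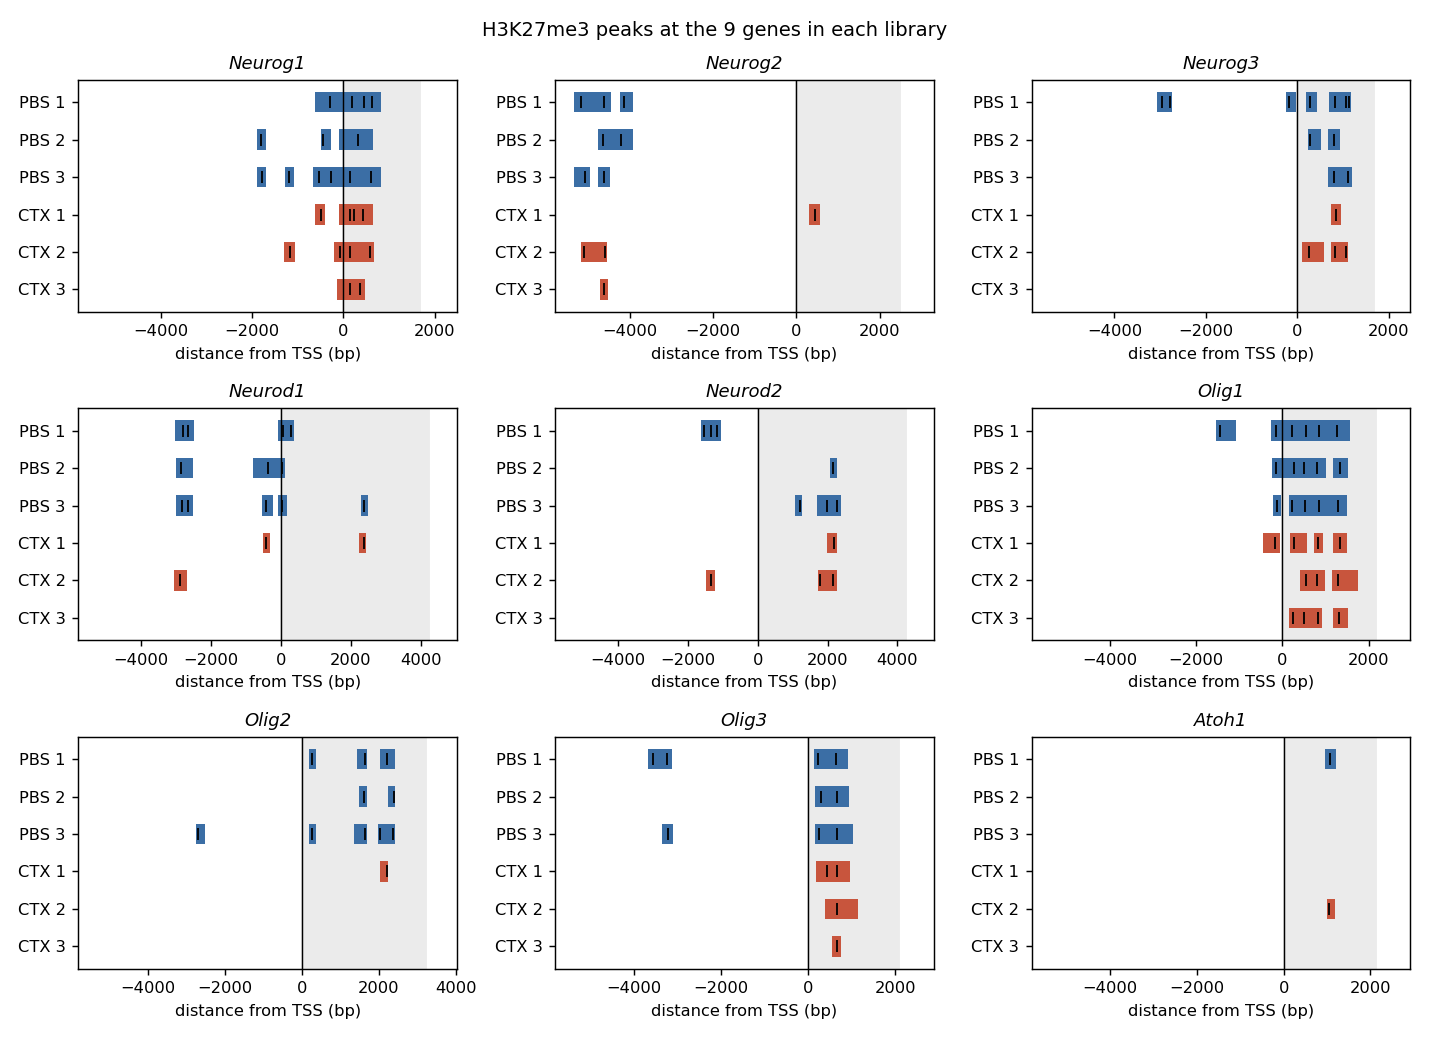
Peaks over the 9 genes, with the distance from the TSS in bp on the horizontal axis and the 6 libraries as rows (PBS in blue, CTX in red). Bars are peaks, black ticks are summits, the grey area is the gene and the black line is the TSS. The peaks within *Olig1* and *Olig3* lie at the same place in all 6 libraries, and most upstream peaks are in the PBS rows.

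The mark was first compared by presence. In PBS replicates 1, 2 and 3, 9, 8 and 8 of the genes had a peak, and in CTX replicates 1, 2 and 3 the number was 8, 8 and 4. The means were 8.33 ± 0.577 among controls and 6.67 ± 2.31 after CTX treatment (SD, n = 3 per group; two-sided exact permutation p = 0.6), so the groups overlapped. The low value came from CTX replicate 3, which lacked peaks at *Neurog3*, *Neurod1*, *Neurod2*, *Olig2* and *Atoh1*. Without it the difference was -0.333 genes, against -1.67 with it. This library was the shallowest, and the part of its depth in the missing peaks was not tested.

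Of the 9 genes, 8 had a peak in all 3 PBS libraries, against 7.53% of protein-coding genes, and 4 had a peak in all 3 CTX libraries, against 4.85%. The 4 genes with a peak in all 6 libraries were *Neurog1*, *Neurog2*, *Olig1* and *Olig3*, where the share of protein-coding genes was 4.53%. Within 2 kb of the TSS, 3 of the genes had a peak in all 6 libraries, against 2.80% of protein-coding genes. *Atoh1* was the exception, with a peak in PBS replicate 1 and CTX replicate 2 only. None of the 8 genes marked in all PBS libraries lacked a peak in all CTX libraries (0 of 8), which happened at 4.48% of 1652 protein-coding genes. A peak was absent from CTX replicate 3 at 4 of the 8 genes, and at 34.3% of those 1652 genes.

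The bases covered by peaks were then summed over the 9 genes. They were 9803, 6959 and 8840 bp across PBS libraries and 4444, 5763 and 2165 bp across CTX libraries. Every CTX library lay below every PBS library. The means were 8534 ± 1446 bp and 4124 ± 1820 bp, a difference of -4410 bp (SD, n = 3 per group; exact permutation p = 0.1, the smallest that 3 against 3 libraries can give). Without CTX replicate 3 the difference was -3430.5 bp. Leaving out a library cannot make groups overlap that lie apart with all libraries. When the 2916 strongest peaks of each library were taken, as many as the shortest list held, it was -3813 bp (exact permutation p = 0.1). The CTX mean was 48.3% of the PBS mean, and over all genes with a peak in all PBS libraries, a set chosen by its PBS peaks, it was 55.3%. The 9 genes held 0.367% ± 0.0291 of all covered bases across PBS libraries and 0.279% ± 0.0399 across CTX libraries (SD, n = 3 per group; exact permutation p = 0.1).

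Single genes were tested for all 4270 protein-coding genes with covered bases. No gene reached a raw p below 0.05 (0 genes), as 3 libraries against 3 cannot, and the smallest adjusted p after the exact permutation test was 0.7. Covered bases were lower in every CTX library than in every PBS library at *Neurog1*, *Neurod1*, *Olig1*, *Olig2* and *Olig3*. These are 5 of the 8 genes marked in all PBS libraries, where 36.2% of such protein-coding genes did the same.

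**Figure D2:**
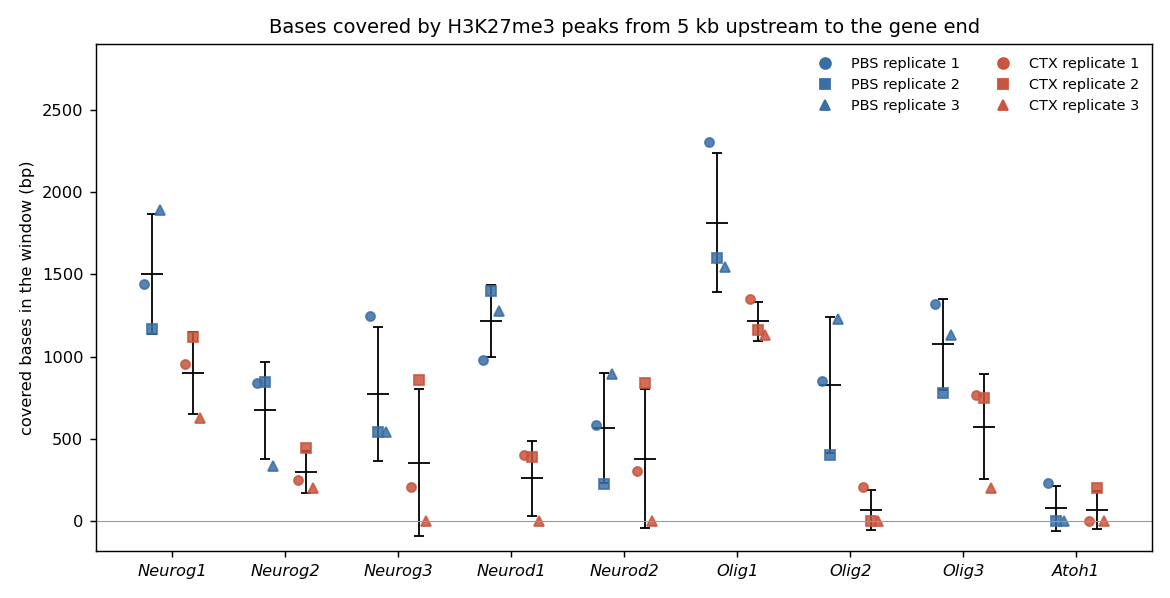
Bases covered by peaks (bp, vertical axis) from 5 kb upstream of the TSS to the gene end for each of the 9 genes. Points are libraries (PBS in blue, CTX in red), and bars are the group mean ± SD over 3 libraries. At *Neurod1* the PBS points lie between 977 and 1400 bp and the CTX points between 0 and 400 bp, and at *Neurod2* the groups overlap.

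The height of the mark was compared by the read density around a gene's strongest summit. This density is the number of reads within 10 kb centred on the summit, divided by the number that the average of the genome gives in the same library. In the PBS libraries it reached 98.1-fold ± 2.40 at *Olig2*, 93.4-fold ± 12.8 at *Neurod2*, 85.5-fold ± 1.86 at *Olig3* and 77.3-fold ± 4.71 at *Neurog1* (SD, n = 3). The median of 1645 protein-coding genes with a peak in all PBS libraries was 24.96-fold, and these 4 genes stood at the 98.9th, 98.5th, 97.3rd and 95.5th percentile. *Olig1*, *Neurog3*, *Neurog2* and *Neurod1* followed with 62.1-fold ± 3.61, 61.3-fold ± 4.34, 44.0-fold ± 1.82 and 33.0-fold ± 2.46 (SD, n = 3). *Olig2* and *Neurod2* did not differ beyond the spread between libraries, and neither did *Olig1* and *Neurog3*. The median of the 8 genes was 69.7-fold.

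In every case where a CTX library had a peak at these 8 genes, its density was below that of all 3 PBS libraries (8 of 8 genes). The same held for 77.0% of 1571 protein-coding genes with a peak in all PBS libraries and at least 1 CTX library. The direction was thus that of most marked genes. Over the 987 genes with a peak and a recovered density in all 6 libraries, the median log2 ratio of CTX to PBS was -0.34, with quartiles of -0.43 and -0.25. For *Olig1*, *Neurog1*, *Olig3* and *Neurog2* it was -0.34, -0.39, -0.39 and -0.48. Relative to the median gene these were 0.0048, -0.046, -0.052 and -0.14. The mean over the 4 genes was -0.40, and it was -0.07 (exact permutation p = 0.2) once each library was scaled by its median gene.

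**Figure D3:**
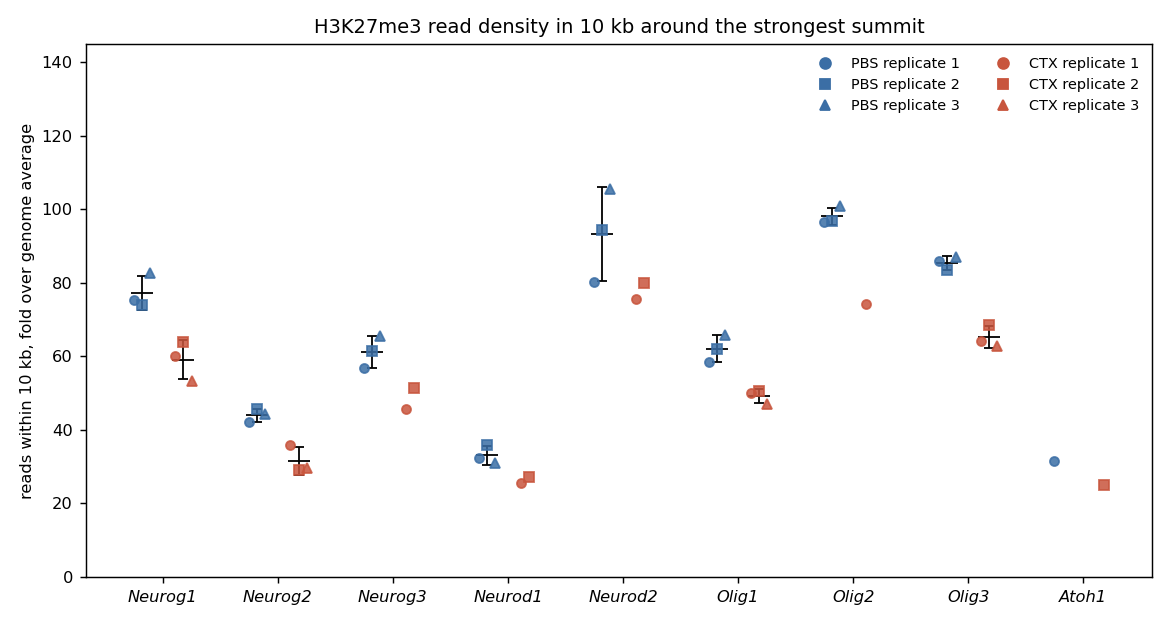
Read density within 10 kb of the strongest summit (fold over the genome average, vertical axis) for each of the 9 genes. Points are libraries with a peak (PBS in blue, CTX in red), and bars are the mean ± SD where all 3 libraries of a group had one. Every CTX point lies below the PBS points of the same gene, though at *Neurod2* the nearest points are 80.0-fold and 80.1-fold. *Olig2* and *Neurod2* have the highest PBS means, 98.1-fold and 93.4-fold.

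**Figure D4:**
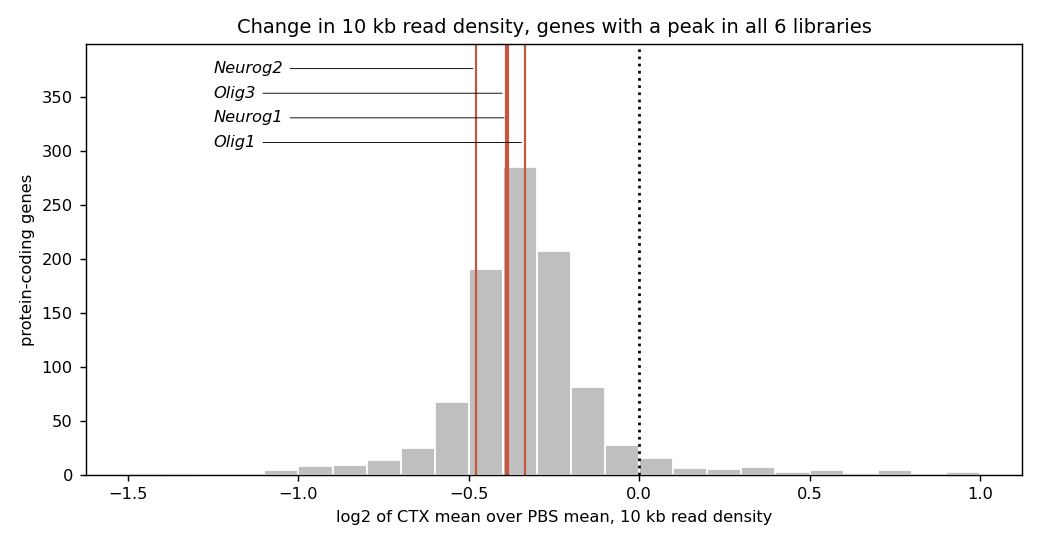
Distribution over 987 protein-coding genes of the log2 ratio of the CTX mean to the PBS mean of the 10 kb read density (horizontal axis, number of genes on the vertical axis). Red lines mark the 4 bHLH genes with a peak in all 6 libraries and the dotted line marks no change. The lines lie between -0.48 and -0.34, close to the median gene at -0.34.

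The neurogenins are the factors that commit progenitors to the neuronal or, for *Neurog3*, the pancreatic endocrine fate. *Neurog1* lies at chr13:56250478-56252163 on the minus strand and consists of 1 exon. Its density was 75.3-, 73.9- and 82.7-fold in PBS replicates 1, 2 and 3 and 60.1-, 63.9- and 53.4-fold in CTX replicates 1, 2 and 3. The groups did not overlap (77.3 ± 4.71 and 59.1 ± 5.34, SD, n = 3 per group; exact permutation p = 0.1). Lower density in every CTX library was seen at 76.5% of the 987 genes and at all 4 of the bHLH genes among them. Its peaks covered 1440, 1170 and 1892 bp across PBS libraries and 956, 1118 and 627 bp across CTX libraries, again without overlap. The peak across the TSS was present in all 6 libraries. The strongest summit of *Neurog1* ranked at the 94.7th, 91.5th and 87.4th percentile by q-value of the summits of its library in the control group, and at the 87.7th, 94.3rd and 10.8th after CTX treatment. The last value, from CTX replicate 3, was the lowest rank of any of the 9 genes.

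*Neurog2*, at chr3:127633135-127635631 on the plus strand, had the lowest density of the 4 genes present in all libraries. It was 42.0-, 45.7- and 44.3-fold across PBS libraries and 36.0-, 29.1- and 29.7-fold across CTX libraries, with no overlap (exact permutation p = 0.1). These values were not all taken at the same place, since in CTX replicate 1 the summit lay 458 bp downstream of the TSS and in the other 5 libraries over 4 kb upstream. That library had an upstream peak as well, from -5310 to -5004 bp relative to the TSS, which ended just outside the window. Covered bases were 842, 845 and 336 bp across PBS libraries and 253, 447 and 202 bp across CTX libraries, and the groups overlapped (exact permutation p = 0.2). Past the gene, a summit 6885 to 6939 bp downstream of the TSS was listed in all 6 libraries. The gene itself was bare of peaks in the other 5 libraries.

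*Neurog3*, at chr10:62133090-62134763 on the plus strand, lies within the gene *Fam241b* on the opposite strand, so its peaks cannot be assigned to 1 of the 2 genes. Its density was 56.8-, 61.5- and 65.5-fold across PBS libraries and 45.6- and 51.5-fold in CTX replicates 1 and 2. Its covered bases were 1246, 542 and 540 bp across PBS libraries and 210, 856 and 0 bp across CTX libraries (exact permutation p = 0.3). The groups overlapped because CTX replicate 2 exceeded 2 of the PBS libraries. At the mean density of CTX replicates 1 and 2, a summit in CTX replicate 3 would have needed 26 reads to be listed, which is 23.3 when scaled to 1000 reads per Mb. The strongest *Neurog3* summits of CTX replicates 1 and 2 had scaled pileups of 27.2 and 31.3, both above this limit.

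The NeuroD factors act after the neurogenins, in differentiating neurons. *Neurod1*, also a regulator of the insulin gene, lies at chr2:79452521-79456751 on the minus strand. It lies within *Cerkl* on the same strand and overlaps the noncoding gene *Gm26755*, so its peaks cannot be assigned to 1 of these genes. *Neurod1* had the lowest density of the 8 genes, 32.4-, 35.8- and 31.0-fold across PBS libraries and 25.6- and 27.1-fold in CTX replicates 1 and 2. Its covered bases differed more, from 1218 ± 218 bp in the control group to 263 ± 228 bp after CTX treatment (SD, n = 3 per group; exact permutation p = 0.1). Per library they were 977, 1400 and 1278 bp against 400, 388 and 0 bp. At the mean density of the other CTX libraries, a summit in CTX replicate 3 needed a scaled pileup of 16.1 to be listed. The strongest *Neurod1* summits of CTX replicates 1 and 2 reached 18.8 and 20.3. A summit 20 to 44 bp downstream of the TSS was listed in all 3 PBS libraries and in 0 CTX libraries. The CTX libraries that had a *Neurod1* peak had it elsewhere, at -423 bp and within the gene in CTX replicate 1 and at -2883 bp in CTX replicate 2. The difference in covered bases was -956 bp, and it was -218 bp within the gene alone.

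*Neurod2*, at chr11:98325415-98329648 on the minus strand, had a high density. The density was 80.1-, 94.3- and 105.7-fold across PBS libraries and 75.6- and 80.0-fold in CTX replicates 1 and 2. By q-value, its strongest summits ranked at the 22.5th, 26.7th and 73.5th percentile across PBS libraries and at the 17.0th and 68.9th across CTX libraries. Those PBS summits held 60, 53 and 78 reads, against medians of 31, 26 and 31 over all summits of the libraries. The q-value is taken against the local background, from which the density was recovered, so rank and density are not independent. Covered bases were 583, 228 and 893 bp against 304, 838 and 0 bp, with overlap (exact permutation p = 0.7). At the mean density of the other CTX libraries, a summit in CTX replicate 3 needed a scaled pileup of 32.2 to be listed. The strongest *Neurod2* summit reached 30.7 in CTX replicate 1, below this limit, and 38.0 in CTX replicate 2, above it. CTX replicate 3 had no peak in the window, but it shared with the other 5 libraries a sharp summit 5465 to 5482 bp downstream of the TSS, past the gene end. There the density in CTX replicate 3 was 66.0-fold. The 10 kb centred on this summit include part of the gene, so the value does not separate reads past the gene end from reads in the window.

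The Olig factors specify oligodendrocytes and certain ventral or dorsal neurons. *Olig1*, at chr16:91269772-91271933 on the plus strand, had the most covered bases on average, 2303, 1597 and 1545 bp across PBS libraries and 1349, 1165 and 1131 bp across CTX libraries. The groups did not overlap (1815 ± 423 and 1215 ± 117 bp, SD, n = 3 per group; exact permutation p = 0.1). Its density was 58.5-, 62.0- and 65.7-fold against 49.96-, 50.6- and 47.0-fold, again without overlap. Its strongest summit stayed at the 82.0th percentile or above in every library.

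*Olig3*, at chr10:19356533-19358604 on the plus strand, had the highest mean summit height of the 4 genes with a peak in all libraries. Its strongest summit, scaled to 1000 reads per Mb, was 52.6, 50.2 and 63.3 reads across PBS libraries and 42.6, 53.4 and 41.1 reads across CTX libraries. These heights overlapped (exact permutation p = 0.3), since CTX replicate 2 exceeded 2 of the PBS libraries. The density around the same summit did not overlap, at 86.0-, 83.4- and 87.0-fold against 64.3-, 68.5- and 62.7-fold. Covered bases were 1322, 777 and 1129 bp against 765, 751 and 205 bp. Scaled summit height was lower in every CTX library at *Neurog1* and *Olig1*, 2 of the 4 genes with a peak in all libraries, and at 37.8% of the 987 protein-coding genes.

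*Olig2* lies at chr16:91225457-91228677 on the plus strand, upstream of *Olig1* on the same chromosome. It had a peak in 3 PBS libraries and 1 CTX library. Covered bases were 855, 400 and 1227 bp across PBS libraries and 207, 0 and 0 bp across CTX libraries (exact permutation p = 0.1). The density was 96.7-, 96.7- and 100.8-fold across PBS libraries and 74.3-fold in CTX replicate 1. Neither CTX replicate 2 nor CTX replicate 3 had a peak within 5 kb of either end of the window. The CpG-rich summit 1612 to 1645 bp downstream of the TSS, printed above, was listed in all 3 PBS libraries and in 0 CTX libraries, and CTX replicate 1 had its summit at 2203 bp instead. At the density of CTX replicate 1, a summit would have needed 45 reads in CTX replicate 2 and 35 reads in CTX replicate 3 to be listed, or 27.6 and 31.3 when scaled. The strongest *Olig2* summits had scaled heights of 41.4, 53.1 and 47.7 across PBS libraries and 37.7 in CTX replicate 1. What the reads of the other 2 libraries held at *Olig2* is not known from lists of called peaks.

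*Atoh1*, the factor of cerebellar granule neurons and inner ear hair cells, lies at chr6:64729125-64731245 on the plus strand and was the least marked of the 9 genes. It had 1 peak of 235 bp in PBS replicate 1 and 1 of 200 bp in CTX replicate 2, with densities of 31.5- and 25.1-fold. The peak lists did not separate the groups here (exact permutation p = 1). Further downstream, 5458 to 5880 bp from the TSS, summits were listed in all 3 PBS libraries and in CTX replicate 2, outside the window. The scaled height that a peak needed in the 4 libraries without one was 14.0 to 16.0, and the peaks of PBS replicate 1 and CTX replicate 2 reached 23.5 and 14.1.

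The position of the peaks differed as well. This split of the windows at the TSS was chosen after the values were seen. Upstream of the TSS, peaks covered 4470, 2909 and 2980 bp across PBS libraries and 906, 1550 and 344 bp across CTX libraries, summed over the 9 genes. The sum of CTX replicate 1 leaves out a *Neurog2* peak of 307 bp that ended at -5004 bp, just outside the window. In PBS replicates 1 and 3, *Neurog2* peaks that began at -5339 bp reached into the window and were counted in part. The same held in CTX replicate 2 for a *Neurog2* peak that began at -5184 bp. The groups did not overlap (3453 ± 881 and 933 ± 603 bp, SD, n = 3 per group; exact permutation p = 0.1). Within the genes, peaks covered 5333, 4050 and 5860 bp against 3538, 4213 and 1821 bp, and the groups overlapped (exact permutation p = 0.2). The upstream part thus made up 45.6%, 41.8% and 33.7% of the covered bases among controls and 20.4%, 26.9% and 15.9% after CTX treatment.

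The mean upstream share was 40.4% ± 6.07 among controls and 21.1% ± 5.53 after CTX treatment (SD, n = 3 per group; exact permutation p = 0.1). Over all protein-coding genes with a peak in all PBS libraries it was 22.9% ± 0.150 and 22.0% ± 0.993 (SD, n = 3 per group; exact permutation p = 0.4). Taken per library, the excess of the bHLH genes over those genes was 17.4 ± 5.996 percentage points among controls and -0.961 ± 4.81 after CTX treatment (SD, n = 3 per group; exact permutation p = 0.1). Those genes had a median length of 24406 bp, against 2162 bp for the 9 genes, so the upstream part is a smaller piece of their windows. *Neurod1* held the most upstream bases, 934 ± 341 bp among controls and 196 ± 194 bp after CTX treatment (SD, n = 3 per group). The noncoding gene *Gm26755* overlaps this upstream part. *Neurog1* held 732 ± 297 and 293 ± 147 bp, and *Neurog2* held 674 ± 293 and 216 ± 224 bp. Leaving out any of the 9 genes in turn, the 2 groups still did not overlap, and the difference ranged from -22.1 to -15.1 percentage points.

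**Figure D5:**
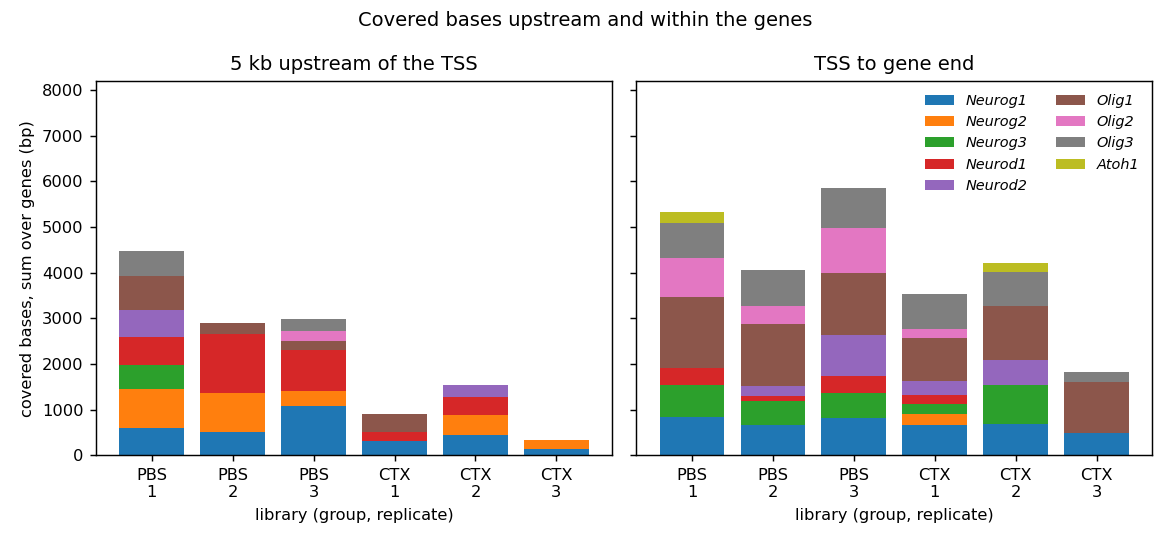
Bases covered by peaks in each library (bp, vertical axis), stacked by gene, in the 5 kb upstream of the TSS (left) and from the TSS to the gene end (right). The upstream sums are 2909 to 4470 bp across PBS libraries and 344 to 1550 bp across CTX libraries, and the sums within the genes overlap between the groups.

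The strongest peak of each gene was also ranked among all summits of its library. The median rank percentile over the genes with a peak was 84.8, 86.4 and 90.5 across PBS libraries and 68.1, 78.1 and 84.2 across CTX libraries. The means were 87.2 ± 2.93 and 76.8 ± 8.16 (SD, n = 3 per group; exact permutation p = 0.1), and the nearest libraries of the groups were 84.8 and 84.2. The lists differ in length, and with equal numbers of peaks the difference was -8.75 percentage points (exact permutation p = 0.2). In CTX replicate 3 this median rests on 4 genes, those with a peak there. The difference of -10.4 percentage points was -6.08 without CTX replicate 1, and with peaks of a q-value of at most 1e-05 it was -1.69 and the groups overlapped.

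The CpG content of the promoters differed widely among the genes. Within 1 kb on either side of the TSS, *Neurog2*, *Neurog1* and *Olig1* stood at the 96.6th, 91.5th and 90.0th percentile of protein-coding genes in CpGs per 100 bp. *Olig2*, *Neurog3*, *Neurod2*, *Olig3* and *Neurod1* stood at the 74.5th, 69.3rd, 64.7th, 62.0th and 50.7th. *Atoh1*, the least marked gene, stood at the 82.2nd, so the order in CpG content was not the order in density. The RefSeq promoter table (GRCm38.p6) held 8 of the 9 genes, all but *Olig1*. In the 300 bp promoters of that table, CpG counts ran from 4 at *Olig3* to 32 at *Neurog1*, beside a median of 7 over 32851 promoters. The letters CANNTG occurred in 5 of the 8 promoters, and in 72.3% of all.

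The partners and regulators of these factors were examined through lists. For comparison, 19.5% of all protein-coding genes had a peak in at least 1 library and 4.53% had one in all 6. Of 11 other neuronal bHLH genes, 7 had a peak in at least 1 library and 5 in all 6, first among them *Ptf1a*, *Bhlhe23* and *Bhlhe22*. The density at *Ptf1a*, a factor of pancreas and inhibitory neurons, was 65.4-fold ± 3.92 among controls and 50.4-fold ± 3.62 after CTX treatment (SD, n = 3 per group). At *Bhlhe23* it was 57.3 ± 3.73 and 44.7 ± 4.00, and at *Bhlhe22* it was 47.4 ± 2.42 and 34.8 ± 3.22. These levels lie within the range of the 8 genes described above. *Nhlh1*, of the same list, was named after its values were seen, since its peaks were in CTX libraries only. It had a peak in 0 PBS libraries and in 2 CTX libraries. Its peaks covered 0 bp among controls and 184 ± 177 bp after CTX treatment (SD, n = 3 per group). The groups overlapped (exact permutation p = 0.4). None of the 3 E proteins (0 of 3), their dimer partners, had a peak in any library.

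Of the 4 Id genes, *Id3* had a peak in all 6 libraries, and *Id4* had a peak in 2 PBS libraries. The *Id3* density was low, 3.71-fold ± 0.982 and 2.86-fold ± 0.722 (SD, n = 3 per group), against the 61.8-fold ± 6.33 of *Hes3* and the 65.6-fold ± 3.40 of *Hes5* in the control group. *Hes3* and *Hes5* were the 2 of the 8 Hes and Hey repressor genes with a peak in all 6 libraries, and *Hes1* had a peak in 4. Of 9 Notch ligand and receptor genes, *Dll3* and *Dll4* had a peak in all 6 libraries and *Notch3* in 4. The share of all protein-coding genes with a peak in all 6 was 4.53%. The Notch genes had a median window of 29236 bp, against 7162 bp for the 9 genes. *Dll1* and *Jag2*, both Notch ligands, were named after their values were seen, since they had a peak in all 3 PBS libraries and in 0 CTX libraries. They were 2 of the 4 Notch genes with a peak in all PBS libraries, and 4.48% of the 1652 protein-coding genes with such peaks did the same. *Dll1* peaks covered 590 ± 347 bp and *Jag2* peaks 230 ± 38.1 bp in the control group (SD, n = 3).

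Genes further down the neural program were examined as well. Of 15 neuronal and oligodendrocyte differentiation genes, 6 had a peak in at least 1 library and 3 in all 6, namely *Rbfox3*, *Stmn2* and *Sox10*. *Sox10*, a regulator of oligodendrocytes, had a density of 39.9-fold ± 4.66 among controls and 30.0-fold ± 1.47 after CTX treatment (SD, n = 3 per group). Of 13 bHLH genes of other lineages, 9 had a peak in at least 1 library and 1 in all 6. That gene was *Myod1*, the muscle determination factor, with 38.7-fold ± 2.33 and 29.9-fold ± 2.59 (SD, n = 3 per group). *Tal1* and *Hand2*, factors of blood and heart, had a peak in 5 libraries each. Over all protein-coding genes, 19.5% had a peak in at least 1 library and 4.53% in all 6. The median window was 57247 bp for the 15 differentiation genes and 7713 bp for the bHLH genes of other lineages. For the 9 genes it was 7162 bp. A longer window has more room for a peak, so the counts of the lists are not directly comparable. Shares of these lists were not tested against each other.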

How the data were processed

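Deposited H3K27me3 peaks of 3 PBS and 3 CTX libraries of GCs were analysed, grouped by the treatment labels. The authors aligned reads to mm10 with BWA, kept uniquely mapped, de-duplicated reads and called narrow peaks in each library with MACS2 (version 2.1.0) at a q-value threshold of 0.05. Use of a control library is not given in the sources used here. The deposited lists give for each summit a score (the -log10 q-value on a wider scale), a fold enrichment (the ratio of pileup to local background), the -log10 p-value, the -log10 q-value and the summit position.

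Peaks were assigned to GENCODE genes of GRCm38 with Python 3.11.15 and samtools 1.23.1. The lists carry no read totals. The pileup in whole reads and the local background were therefore solved from the fold enrichment and the p-value, for 99.8% to 99.9% of summits per library. A read extended by 200 bp adds 0.02 to the background over 10 kb. Divided by 0.02, all local backgrounds came within 0.05 of a whole number of reads (100%). Their floor gives the depth. This recovery and the 10 kb density were chosen after seeing the data. The steps were tested on simulated data. Counting error limits every pileup, and no spike-in was used. A list of calls cannot show signal below the threshold, so absence of a peak is not absence of the mark.

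Means of the groups (CTX minus PBS) were compared with the two-sided exact permutation test, with Benjamini-Hochberg adjustment over all protein-coding genes with covered bases. Means are given ± SD over libraries. The 9 genes and the lists were chosen with earlier results of these data known. All 9 were named, and from each other list at most 3 genes with peaks in the most libraries, ties by mean rank percentile. *Dll1*, *Jag2* and *Nhlh1* were named outside this rule, after their values were seen. Alternatives were stricter q-values, equal peak numbers, other windows, joined peaks, other scalings, each library left out and a replicate block. The correlations of deviations between same-numbered libraries were 0.023, -0.49 and -0.19. They gave no sign of pairing by number, but they cannot exclude that samples were collected in pairs.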

Additional observations from a re-analysis of the deposited data

How the results depend on the processing

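The number of genes with a peak in all 6 libraries was 4, and it was 2 at a q-value of at most 1e-05, where fewer peaks remain by construction. With 1 library left out it ranged from 4 to 7, the highest without CTX replicate 3. The number with a peak in all PBS and no CTX libraries was 0, and it was 1, *Olig2*, within 2 kb of the TSS. With 1 library left out it ranged from 0 to 1, and it was 1 without CTX replicate 1, the only CTX library with an *Olig2* peak. The difference in covered bases turned positive at *Neurog2* (84.3 bp, both within 2 kb of the TSS and within the gene only), at *Atoh1* (66.7 bp without PBS replicate 1, and 21.7 bp without CTX replicate 1 or 3) and at *Neurod2* (3 bp without CTX replicate 3), all at exact permutation p = 1. With 1 library left out these differences went down to -78.3 bp at *Atoh1* and -416 bp at *Neurod2*. The cause of these shifts was not tested. With 1 library left out, the difference in covered bases over the 9 genes ranged from -5229.5 to -3430.5 bp, in genes with a peak from -2.33 to -0.333, and in median rank percentile from -14.2 to -6.08. The difference in upstream share ranged from -22.6 to -16.7 percentage points, in log2 density from -0.43 to -0.36 and in log2 scaled summit height from -0.46 to -0.32. Unscaled, the summit height differed by -0.64 on the log2 scale, and by -0.12 when scaled by the median gene, against -0.41 as reported.

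The labels give both groups replicate numbers 1 to 3, and whether these pair the libraries is not known. With a replicate block the difference in covered bases stayed at -4410 bp and that in upstream share at -19.3 percentage points (exact sign-flip permutation p = 0.25 each, the smallest that 3 pairs can give). The block changed no call, since no comparison could pass 0.05 with or without it.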
